A study of Arabidopsis thaliana with 15 samples.

Results

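The comparison described here sets Arabidopsis thaliana plants sprayed with the lowest density of a leaf bacterium, called W5, against plants sprayed with buffer alone, called mock. It holds 6 of the 15 RNA-seq libraries of the series, 3 in each group, taken by their labels. W5 plants received Williamsia sp. Leaf354, a bacterium that lives on leaves and causes no disease, at 100000 colony-forming units (CFU) per ml, and mock plants received phosphate-buffered saline (PBS). Both groups were of the ecotype Col-0, were grown with aseptic handling in closed boxes, were 6 weeks old at spraying and were harvested 96 h later. Each library came from the pooled aboveground parts of 2 plants from different boxes. The other 9 libraries, from plants given 1000000 (W6), 10000000 (W7) or 100000000 (W8) CFU/ml and otherwise kept alike, entered the model that estimates the spread. W5 is the lowest of the densities that the study compared to ask how far the plant response follows bacterial load.

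Leaves read bacteria through pattern receptors at the cell surface, whose signalling raises marker genes such as FRK1 and NHL10, and through salicylic acid, which raises PR1. They also read their own energy state. When sugar is short, the kinase SnRK1 and bZIP transcription factors switch on genes for the breakdown of amino acids, starch and other reserves. Cytokinin, a hormone that delays leaf ageing, acts through receptors that activate type-B response regulators, which in turn switch on type-A response regulators that damp the signal. KMD F-box proteins mark the type-B regulators for breakdown. Genes from all of these systems were followed in W5 plants.

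Library totals were 20340085, 21333041 and 19107869 counts in W5 and 18690766, 20447000 and 21648036 counts in mock. Levels are given as CPM, counts per 1000000 counts after scaling by the trimmed mean of M values (TMM). The leaf markers (18 genes of light harvesting and carbon fixation) summed to 98690, 87240 and 94470 CPM in W5, against 106200, 104700 and 87640 CPM in mock. Of 6 root markers only SCR, which leaf tissue also expresses, passed the filter on low counts, and the flower markers summed to at most 5.13 CPM in W5 and 5.82 CPM in mock. The material thus carried the markers of leaf tissue and hardly any of flowers. In whole shoots, fewer cells of a type and less RNA per cell cannot be told apart.

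Mock replicate 3 stood apart from the other mock libraries. On the first principal component of the 6 libraries, which held 50.7% of the variance of log2 CPM, the W5 libraries lay at -12.8, -9.94 and -7.04, and mock replicates 1, 2 and 3 lay at -19.2, -15.8 and 64.7. Among 16648 genes whose average log2 CPM reached 1, 381 were over 2-fold higher in mock replicate 3 than in the mean of mock replicates 1 and 2, and 18 were over 2-fold lower, whereas the W5 mean was over 2-fold above those 2 libraries in 44 genes and below them in 5. The 5 of these genes with the most extreme difference are given here. AOX1D, an alternative oxidase of the mitochondrion, stood at 0.401, 0.276 and 0.581 CPM in W5, against 0.279, 0.255 and 101 CPM in mock. The peroxidase gene AT5G39580 stood at 0.1, 0.0459 and 0.846 CPM in W5, against 0, 0.255 and 44.7 CPM in mock, and 3 further genes followed that pattern, DLAH (AT1G30370), the protein kinase gene AGC2-1 (AT3G25250) and AT4G11170, of the TIR-NBS-LRR immune receptor class. Results are therefore given with this library and, where they change, without it. The cause of the difference was not tested.

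With all 3 mock libraries, 35 of 19404 genes tested differed at an edgeR quasi-likelihood adjusted p under 0.05, which is 0.18% of them. In W5, 32 genes were higher (0.165%) and 3 were lower (0.0155%). The rises were moderate: 7 were at least 2-fold and 17 at least 1.5-fold, and their log2 fold changes ran from 0.33 to 1.57 with a median of 0.60. For all 35 genes the 3 W5 libraries lay on one side of the 3 mock libraries, an arrangement found upwards in 5.92% and downwards in 5.59% of all genes tested. Without mock replicate 3, 60 of 19567 genes were called (0.307%), 49 higher (0.25%) and 11 lower (0.0562%), and 32 of the 35 were among them. At an unadjusted p under 0.05, 476 genes were higher (2.45%) and 710 lower (3.66%) with all mock libraries, against 727 higher (3.72%) and 1104 lower (5.64%) without mock replicate 3. DESeq2 called 58 genes (0.298%), 43 higher (0.221%) and 15 lower (0.0771%). A fit of the 2 groups alone without mock replicate 3, added after seeing the data, called 242 (1.29%), 98 higher (0.521%) and 144 lower (0.766%), so that the lower genes outnumbered the higher ones in that fit and not in the others.

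The largest rise, which also had the smallest p, was that of AT2G20670, a gene of the DUF506 family, whose proteins have little known function, on chromosome 2, 8911860 to 8913747 of the RefSeq assembly TAIR10.1. It stood at 111, 104 and 125 CPM in W5 replicates 1, 2 and 3, against 39.8, 36.4 and 38.1 CPM in the mock replicates. The groups were far apart, and the W5 mean was 2.97 times the mock mean (log2 fold change 1.57 ± 0.088, SE; edgeR adjusted p = 6.36e-09). A second DUF506 gene, AT3G07350 (chromosome 3, 2347186 to 2348791), had 10.4, 10.4 and 15.5 CPM in W5 replicates 1, 2 and 3, against 5.59, 4.24 and 5.34 CPM in the mock replicates. It rose 2.39-fold (log2 fold change 1.25 ± 0.17, SE; edgeR adjusted p = 0.00161), with W5 replicate 3 highest. Of the 10 members of the family that were tested, these 2 were called, against 0.18% of all genes. Above 0 lay 7 of the 10, against 9165 of all 19404 genes tested. The median log2 fold change over the 10 was 0.12, against -0.009 over all genes tested. Without mock replicate 3 it was 0.30, against 0.003 over all genes. AT4G32480 and AT1G77145 had log2 fold changes of 0.49 and 0.46 with adjusted p values of 0.732 and 0.812, so the call was made for 2 members and not for the family as a whole.

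Several of the genes that rose encode parts of ubiquitin ligases, the enzymes that mark proteins for breakdown. This grouping was made after the values were seen. KMD1 (AT1G80440, chromosome 1, 30241452 to 30243176), the kelch-repeat F-box protein that targets type-B response regulators, had 136, 113 and 133 CPM in W5 replicates 1, 2 and 3, against 56.5, 55.5 and 55.5 CPM in the mock replicates. The mock values were nearly the same, and KMD1 rose 2.27-fold (log2 fold change 1.19 ± 0.085, SE; edgeR adjusted p = 2.34e-07). AT1G23390, a kelch F-box gene whose product turns over chalcone synthase, the entry enzyme of flavonoid synthesis, had 294, 238 and 259.7 CPM in W5, against 165, 173 and 168 CPM in mock. Its rise was smaller than that of KMD1 (log2 fold change 0.65 ± 0.069, SE; edgeR adjusted p = 5.4e-05). AT3G18773, a RING finger gene on chromosome 3, 6465748 to 6467175, had 9.77, 8.77 and 11.2 CPM in W5, against 3.97, 3.73 and 4.47 CPM in mock (log2 fold change 1.28 ± 0.13, SE; edgeR adjusted p = 3.05e-05). RMA1 (AT4G03510), a ubiquitin ligase anchored in the endoplasmic reticulum membrane, had 31.4, 28.01 and 30.97 CPM in W5, against 18.6, 17.6 and 19.3 CPM in mock (log2 fold change 0.71 ± 0.075, SE; edgeR adjusted p = 5.4e-05). For both RING genes the groups did not overlap. They share exon bases with a neighbouring gene, so that 85.9% of the exon bases of AT3G18773 and 91.4% of those of RMA1 are their own, and their counts are uncertain for that reason.

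PP2-A13 (AT3G61060), which joins an F-box to a lectin domain, had 45.1, 32.1 and 40.01 CPM in W5, against 28.8, 23.9 and 23.7 CPM in mock (log2 fold change 0.62 ± 0.12, SE; edgeR adjusted p = 0.0463). Its own share of exon bases was 66.8%, and it was not called without mock replicate 3 (adjusted p = 0.13), W5 replicate 1 (0.207), W5 replicate 3 (0.219) or mock replicate 2 (0.264). RHA1B (AT4G11360), another RING gene, had a log2 fold change of 0.53 (adjusted p = 0.0233), and XERICO (AT2G04240), whose product raises abscisic acid when it is abundant, of 0.47 (adjusted p = 0.0273). Among the KMD relatives, KMD2 (AT1G15670) stood at 14.8, 14.7 and 16.5 CPM in W5, against 10.9, 13.4 and 15.02 CPM in mock, with overlapping groups (adjusted p = 0.866). KMD4 (AT3G59940) was below 1 CPM in every one of these libraries, and KMD3 did not pass the filter. KMD1 was thus the 1 called among 3 members tested, against 0.18% of all genes. All 3 had log2 fold changes above 0, against 9165 of all 19404 genes tested, with a median of 1.185.

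Genes for an aspartyl protease and for a stress tolerance factor were also at least 2-fold higher. AT5G19120, of the aspartyl protease family (chromosome 5, 6414488 to 6415907), had 60.4, 50.7 and 71.99 CPM in W5 replicates 1, 2 and 3, against 24.97, 22.02 and 28.6 CPM in the mock replicates. It rose 2.42-fold (log2 fold change 1.27 ± 0.12, SE; edgeR adjusted p = 5.4e-05) and was called without each of the 6 libraries in turn, but not in a fit of these 2 groups alone (adjusted p = 0.0681). OXS3 (AT5G56550, chromosome 5, 22895616 to 22896734), named for tolerance of oxidative stress, had 9.77, 8.59 and 12.2 CPM in W5, against 3.07, 2.35 and 5.98 CPM in mock. Mock replicate 3 held the highest mock value here. The rise of 2.64-fold (log2 fold change 1.40 ± 0.24, SE; edgeR adjusted p = 0.0435) became a log2 fold change of 1.91 without that library (adjusted p = 1.76e-06), while without any other single library of the 6 the adjusted p was between 0.0654 and 0.247.

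**Figure D1:**
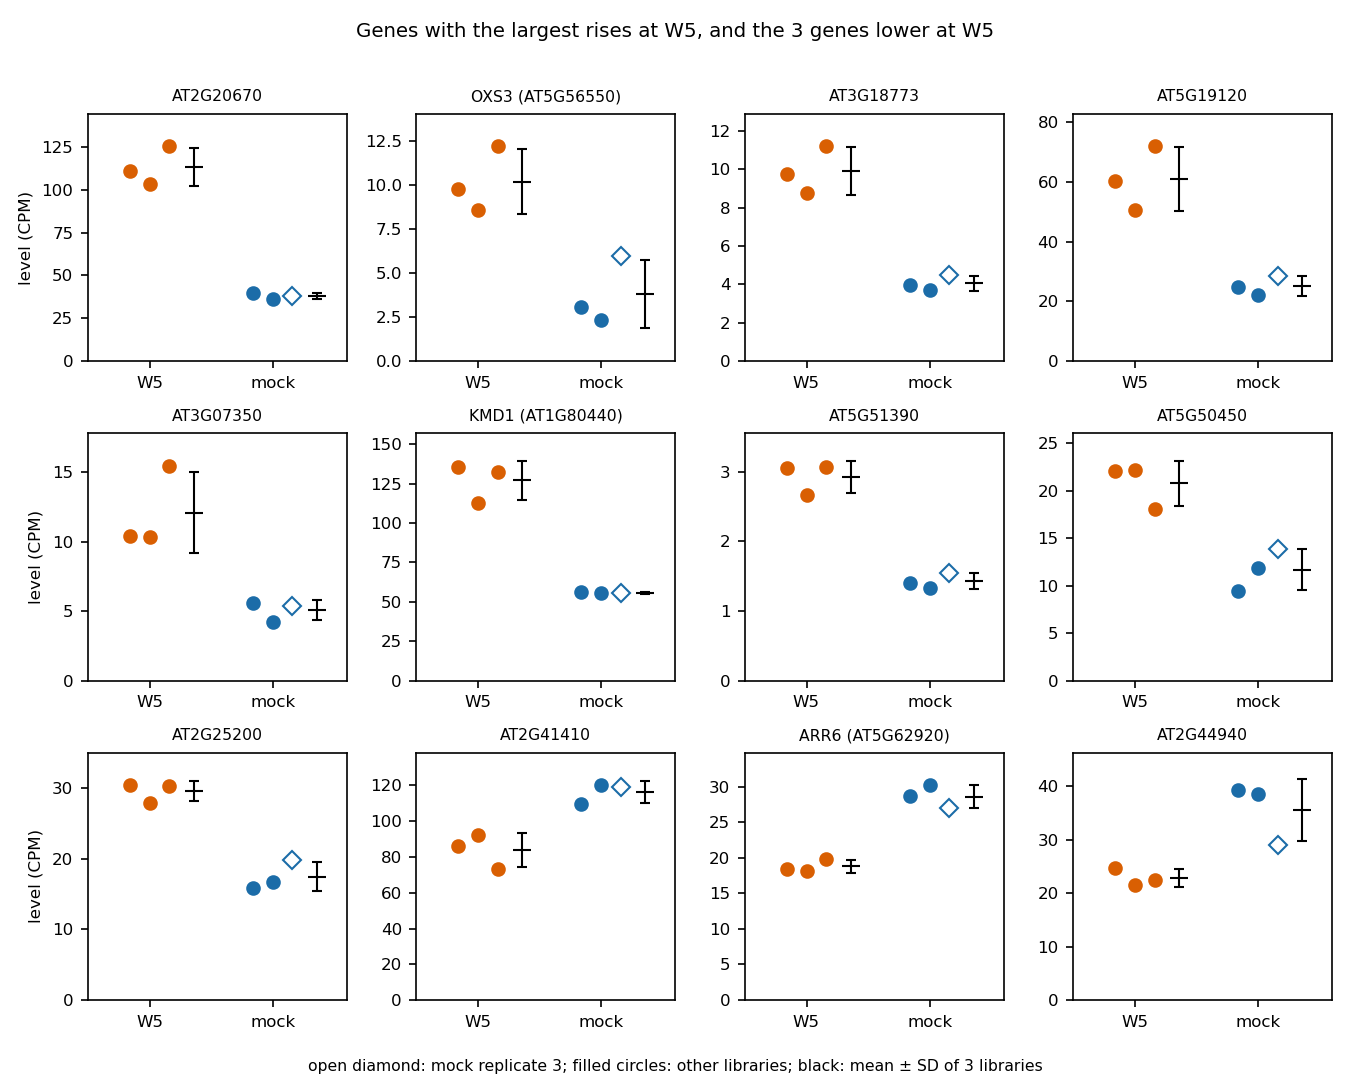
Levels in CPM on linear axes from 0 of the 9 genes with the largest rises and of the 3 lower genes, W5 on the left in orange and mock on the right in blue, with the mean ± SD of the 3 libraries in black. In every panel the 3 W5 points lie on one side of the 3 mock points, and mock replicate 3, the open diamond, is the highest mock point for OXS3 and the lowest for AT2G44940.

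Genes of transcription and RNA binding formed another group among those that rose, again grouped after the values were seen. TEM1 (AT1G25560), which delays flowering by repressing FT, had 112, 90.7 and 108 CPM in W5, against 57.5, 63.9 and 72.5 CPM in mock (log2 fold change 0.68 ± 0.082, SE; edgeR adjusted p = 0.000244). RAV2 (AT1G68840), also named TEM2, its close relative with the same role, had 208, 168 and 183 CPM in W5, against 116, 127 and 155 CPM in mock (log2 fold change 0.49 ± 0.091, SE; edgeR adjusted p = 0.028). For both genes the groups did not overlap, although the lowest W5 value of RAV2 was near mock replicate 3. RAV1 (AT1G13260), of the same family, stood at 131, 114 and 122 CPM in W5, against 71.5, 84.4 and 105 CPM in mock, with a log2 fold change of 0.49 (adjusted p = 0.133), and was called without mock replicate 3 at 0.65 (adjusted p = 0.00027). The family had 4 members tested, all with a log2 fold change above 0, 2 called with all mock libraries, against 0.18% of all genes, and 3 without mock replicate 3, against 0.307%. It was taken up because members were called, so nothing is read from these counts. TEM1 was called without each of the 6 libraries in turn, but not in a fit of the 2 groups alone (adjusted p = 0.0689).

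OFP16 (AT2G32100), of a family of transcriptional repressors, had 46.2, 50.3 and 49.7 CPM in W5, against 29.9, 34.9 and 30.3 CPM in mock (log2 fold change 0.62 ± 0.085, SE; edgeR adjusted p = 0.00118). AT5G61590, also named DEWAX, which represses genes of cuticular wax synthesis, had 163, 155 and 174 CPM in W5, against 104, 111 and 126 CPM in mock (log2 fold change 0.53 ± 0.068, SE; edgeR adjusted p = 0.000596). Both were called in all 15 alternative settings of the analysis. The CCCH zinc finger genes ATCTH (AT2G25900) and OZF2 (AT4G29190) rose by log2 fold changes of 0.44 and 0.37 (adjusted p = 0.00614 and 0.0473). BBX14 (AT1G68520), a B-box zinc finger gene with 87.4% of its exon bases to itself, rose by 0.37 (adjusted p = 0.00878). It was the 1 called of 16 B-box genes tested with all mock libraries, against 0.18% of all genes. AT5G50450, a gene for a zinc finger protein of the MYND type, had 22.1, 22.2 and 18.02 CPM in W5, against 9.44, 11.8 and 13.8 CPM in mock (log2 fold change 0.82 ± 0.12, SE; edgeR adjusted p = 0.0034), called without each single library and not in a fit of the 2 groups alone (adjusted p = 0.0765).

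The remaining genes that rose include chaperones and proteins named by domain only. J8 (AT1G80920) and J11 (AT4G36040), chloroplast proteins with the J domain that recruits Hsp70 chaperones, were 2 of them. J8 had 404, 345 and 369 CPM in W5, against 232, 242 and 296 CPM in mock (log2 fold change 0.54 ± 0.097, SE; edgeR adjusted p = 0.0233), and 78% of its exon bases are its own. J11 had 399.5, 326 and 352 CPM in W5, against 264, 258 and 277 CPM in mock (log2 fold change 0.43 ± 0.072, SE; edgeR adjusted p = 0.0103). The groups were separate for both, with changes under 1.5-fold. AT5G60680 and AT5G03230, of the DUF584 family that RefSeq calls senescence regulators, rose by 0.60 and 0.46 (adjusted p = 0.00098 and 0.0233), and they were the 2 called of 13 family members tested, against 0.18% of all genes, in a family taken up after the values were seen. Of the 13, 9 lay below 0, with a median of -0.12. AT5G60680 was not called in a fit of the 2 groups alone (adjusted p = 0.0503). AT1G74940, of the DUF581 family of zinc finger proteins that bind SnRK1, had the smallest rise, 0.33 (adjusted p = 0.0382), and was the 1 called of 15 members tested in a family likewise taken up after the values were seen.

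AT2G25200, of the DUF868 family, had 30.4, 27.96 and 30.3 CPM in W5, against 15.8, 16.8 and 19.8 CPM in mock (log2 fold change 0.76 ± 0.082, SE; edgeR adjusted p = 5.4e-05). AT2G24550 had 46.1, 45.3 and 43.4 CPM in W5, against 23.2, 26.9 and 36.3 CPM in mock (log2 fold change 0.64 ± 0.11, SE; edgeR adjusted p = 0.0234), and AT5G51390, at low counts, had 3.06, 2.66 and 3.07 CPM in W5, against 1.397, 1.33 and 1.55 CPM in mock (log2 fold change 1.03 ± 0.2, SE; edgeR adjusted p = 0.0337). W5 lay above mock in every library for the 3 genes. AT5G51390 was not called without any single library, mock replicate 3 included (adjusted p = 0.0539), and its adjusted p reached 0.23 without mock replicate 2. AT2G24550 was called without mock replicate 3 (adjusted p = 3.21e-06) and not without any other of the 6, where its adjusted p ran from 0.0584 to 0.216. The last called rises were those of AT2G29300, of the Rossmann-fold family, AT5G19190, AT2G27830, AT4G05070, of a wound-responsive family, and AT5G24890, between 0.42 and 0.59 on the log2 scale. AT2G29300 was the third gene, with PP2-A13 and AT5G51390, that was not called without mock replicate 3 (adjusted p = 0.0724).

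All 35 genes kept their direction without each of the 6 libraries in turn, and 15 of them were called in all 6 of those fits. The number of the 35 that stayed called was 15, 27 and 17 without W5 replicates 1, 2 and 3, and 17, 18 and 32 without mock replicates 1, 2 and 3. The genes called in all 15 alternative settings were 11, all of them higher in W5: AT2G20670, KMD1, AT3G18773, AT3G07350, AT2G25200, RMA1, AT1G23390, OFP16, AT5G61590, AT5G19190 and AT4G05070. Besides the genes named above with such a loss and the lower genes, the following rises lost their call without 1 or more of the 6 libraries. Leaving out W5 replicate 1 gave the highest adjusted p of these fits for RAV2 (0.262), ATCTH (0.0804), OZF2 (0.461), BBX14 (0.0855) and AT2G29300 (0.231). Leaving out mock replicate 1 gave the highest adjusted p of these fits for AT5G03230 (0.204), AT1G74940 (0.278) and AT5G24890 (0.0683). Leaving out mock replicate 2 gave the highest adjusted p of these fits for RHA1B (0.23), XERICO (0.216), J8 (0.225), J11 (0.123) and AT2G27830 (0.0991).

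The 3 genes lower in W5 encode transcription and signalling proteins. AT2G44940, of the TINY clade of AP2/ERF transcription factors, on chromosome 2, 18537177 to 18538479, had 24.8, 21.5 and 22.5 CPM in W5 replicates 1, 2 and 3, against 39.3, 38.6 and 28.9 CPM in the mock replicates (log2 fold change -0.63 ± 0.12, SE; edgeR adjusted p = 0.0324). Mock replicate 3 was the mock library nearest to W5, and without it the log2 fold change was -0.76 (adjusted p = 0.000648). ARR6 (AT5G62920, chromosome 5, 25252007 to 25254318), a type-A response regulator, had 18.5, 18.1 and 19.9 CPM in W5 replicates 1, 2 and 3, against 28.7, 30.2 and 26.9 CPM in the mock replicates (log2 fold change -0.60 ± 0.12, SE; edgeR adjusted p = 0.0382). The groups were well separated, but only 76.1% of its exon bases are its own, the rest being shared with AT5G62910. AT2G41410 (chromosome 2, 17261728 to 17263017), which encodes a calcium-binding EF-hand protein, had 86.4, 92.3 and 73.5 CPM in W5 replicates 1, 2 and 3, against 109.5, 120.3 and 119 CPM in the mock replicates (log2 fold change -0.47 ± 0.081, SE; edgeR adjusted p = 0.0134), with W5 replicate 3 lowest. None of the 3 was called in every fit that left out 1 library. AT2G44940 and ARR6 were called without mock replicate 3 only, with adjusted p values up to 0.23 and 0.262 in the other 5 fits, and AT2G41410 lost its call without W5 replicate 1 (0.0804), W5 replicate 3 (0.129) or mock replicate 2 (0.127).

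ARR6 was the 1 called of 8 type-A response regulators tested, against 0.18% of all genes. All 8 had log2 fold changes below 0, against 10238 of all 19404 genes tested. Their median was -0.34, against -0.009 over all genes tested. In 6 of the 8 every W5 library lay below every mock library, as in 5.59% of all genes tested. ARR7 (AT1G19050) had 16.7, 19.2 and 19.2 CPM in W5, against 25.6, 31.01 and 30.7 CPM in mock, with a log2 fold change of -0.67 that missed the threshold (adjusted p = 0.0615). ARR5 (AT3G48100) had 10.5, 9.78 and 9.57 CPM in W5, against 10.7, 12.7 and 15.7 CPM in mock (log2 fold change -0.39, adjusted p = 0.711). Here mock replicate 3 was the highest library, and without it the median of the 8 genes was -0.23, against 0.003 over all genes, with all 8 still below 0. The medians were -0.34 with DESeq2 size factors and -0.33 with upper-quartile scaling, with 8 of 8 below 0 under each.

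The 6 cytokinin response factors are AP2/ERF genes, some of which cytokinin raises. They also all lay below 0, under either scaling too, against 10238 of all 19404 genes tested. Their median was -0.44, against -0.009 over all genes tested, and none was called. CRF2 (AT4G23750) had 12.8, 14.1 and 12.7 CPM in W5, against 19.8, 20.8 and 14.98 CPM in mock (log2 fold change -0.48, adjusted p = 0.73, or -0.61 (adjusted p = 0.137) without mock replicate 3). CRF5 (AT2G46310) had 3.21, 3.17 and 4.18 CPM in W5, against 4.69, 5.16 and 7.62 CPM in mock (log2 fold change -0.73, adjusted p = 0.679). For both genes W5 lay below mock in every library, as in 5.59% of all genes tested. The receptors and type-B regulators, which act upstream, had a median of 0.03 over 8 genes, none called, and the synthesis and breakdown genes a median of -0.15 over 12 genes, none called. Only 0.18% of all genes were called, so the lack of a call does not set these lists apart. Type-B regulator ARR1 (AT3G16857) stood at 49.4, 47.5 and 48.8 CPM in W5, against 45.6, 43.98 and 44.5 CPM in mock (adjusted p = 0.899).

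**Figure D2:**
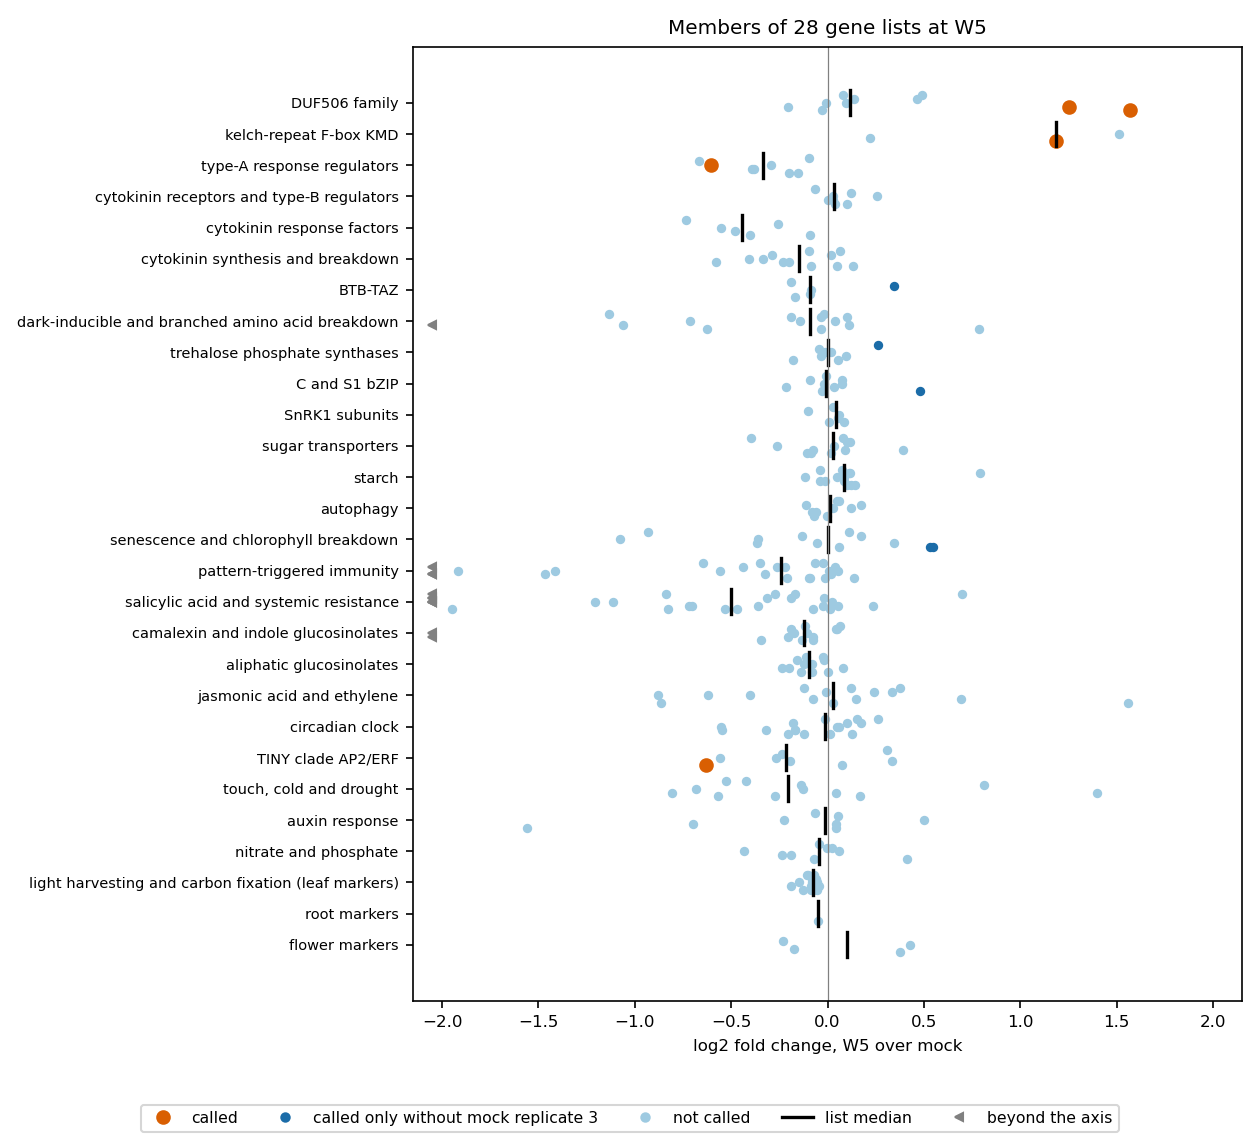
Log2 fold change of W5 over mock for the tested members of 28 gene lists, 1 point a gene, with the list median as a black bar, called genes as large orange points and genes called without mock replicate 3 but not with it in dark blue. The called points are 2 DUF506 genes, KMD1, ARR6 and AT2G44940, all 8 type-A response regulators and all 6 cytokinin response factors lie left of 0, and grey arrows mark immune and other genes beyond -2.

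Over the 28 lists, 307 of 333 members were tested and 5 were called, 3 higher and 2 lower, against 0.18% of all genes. Without mock replicate 3, 10 of 308 were called, against 0.307% of all genes. The lists were chosen with earlier results of these data known, so these counts are a description. In the low-energy lists no member was called with all mock libraries. The bZIP factor gene bZIP1 (AT5G49450), which acts below SnRK1, had 20.99, 18.1 and 20.6 CPM in W5, against 8.88, 13.9 and 19.6 CPM in mock and was called without mock replicate 3 at 0.80 (adjusted p = 0.0186). The trehalose phosphate synthase gene TPS8 (AT1G70290) had 130.4, 122 and 139 CPM in W5, against 99.3, 101 and 126 CPM in mock and was called in that fit at 0.38 (adjusted p = 0.0367), as was the BTB-TAZ adaptor gene BT4 (AT5G67480) at 0.70 (adjusted p = 0.0147). In all of these mock replicate 3 was the highest mock library, inside or above the range of W5.

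SEN1 (AT4G35770), a dark-inducible gene, had 24.3, 17.4 and 26.4 CPM in W5, against 8.71, 14.1 and 16.2 CPM in mock. The groups did not overlap, but the adjusted p was 0.732 with and 0.347 without mock replicate 3. ASN1 (AT3G47340), an asparagine synthetase gene that darkness raises, had 15.9, 12.6 and 18.6 CPM in W5, against 17.99, 18.9 and 65.3 CPM in mock (adjusted p = 0.812), with mock replicate 3 far above the other 5 libraries. BT2 (AT3G48360), which sugar represses, had 4.76, 3.398 and 4.23 CPM in W5, against 2.57, 5.06 and 5.34 CPM in mock (adjusted p = 0.974). The SnRK1 subunit genes had a median of 0.04 over 6 genes, the starch genes 0.09 over 14, the sugar transporters 0.03 over 12 and the autophagy genes 0.01 over 10, none of them with a called member in either fit. Over all genes tested, 0.18% and 0.307% were called in these fits.

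Among senescence genes, none of 12 was called with all mock libraries and 2 were called without mock replicate 3, against 0.307% of all genes. NAP (AT1G69490), a NAC factor that promotes leaf senescence, had 52.6, 47.98 and 51.6 CPM in W5, against 29.7, 31.1 and 44.1 CPM in mock (log2 fold change 0.53, adjusted p = 0.173). Every W5 library was above every mock library, and without mock replicate 3 the log2 fold change was 0.74 (adjusted p = 5.19e-05). ORS1 (AT3G29035), a related NAC gene, had 20.7, 21.2 and 18.2 CPM in W5, against 11.6, 11.4 and 17.99 CPM in mock and was called in that fit at 0.81 (adjusted p = 0.0186). The list as a whole lay higher in mock replicate 3 than in either group: against the mean of mock replicates 1 and 2, its median log2 difference was 0.18, 0.12 and 0.28 in the W5 libraries and 0.59 in mock replicate 3.

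Without mock replicate 3, 28 genes were called that were not called with it, 20 higher and 8 lower. In all 20 of the higher ones mock replicate 3 was the highest mock library, which the way they were picked all but fixes. It was the highest mock library in 23 of the 32 genes called higher with all mock libraries, and the share over all genes was not counted. AT5G21940, with 90.5% of its exon bases to itself and no role given by RefSeq, had 59.7, 47.9 and 67.1 CPM in W5, against 11.8, 11.03 and 28.9 CPM in mock. Its log2 fold change was 1.74 with all mock libraries (adjusted p = 0.0657) and 2.35 (adjusted p = 2.19e-09) without mock replicate 3. RD26 (AT4G27410), a NAC factor gene raised by abscisic acid and drought, had 30.9, 23.3 and 28.9 CPM in W5, against 11.6, 10.4 and 19.1 CPM in mock. W5 was above all 3 mock libraries, with a log2 fold change of 1.00 with all of them (adjusted p = 0.12) and 1.33 (adjusted p = 1.12e-05) without mock replicate 3.

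For 2 genes the direction turned. NAC055 (AT3G15500), a NAC factor gene of jasmonate and abscisic acid responses, had 9.82, 8.27 and 12.4 CPM in W5, against 3.63, 3.52 and 36.2 CPM in mock. W5 lay above mock replicates 1 and 2 and far below mock replicate 3, so the log2 fold change was -0.54 with all mock libraries (adjusted p = 0.935) and 1.5 (adjusted p = 0.000208) without mock replicate 3. HSPRO2 (AT2G40000), whose product binds SnRK1, had 70.9, 55.4 and 59.2 CPM in W5, against 33.4, 35.04 and 140.0 CPM in mock, with log2 fold changes of -0.18 (adjusted p = 0.97) and 0.85 (adjusted p = 0.00508). With all mock libraries, limma voom gave 0.24 for NAC055 and 0.15 for HSPRO2, neither called. ERF104 (AT5G61600), an ethylene response factor gene that pattern signalling acts on, had 15.6, 14.7 and 17.8 CPM in W5, against 8.04, 10.01 and 18.03 CPM in mock and was called without mock replicate 3 at 0.82 (adjusted p = 0.00101). The others among the 12 with the smallest p were AT3G10020, AT5G65207, BBX13 and AT5G18130, all higher in W5, and AT3G45210, a DUF584 gene that was lower at -0.62 (adjusted p = 0.00317). NAP and RAV1 also belong to these 12.

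**Figure D3:**
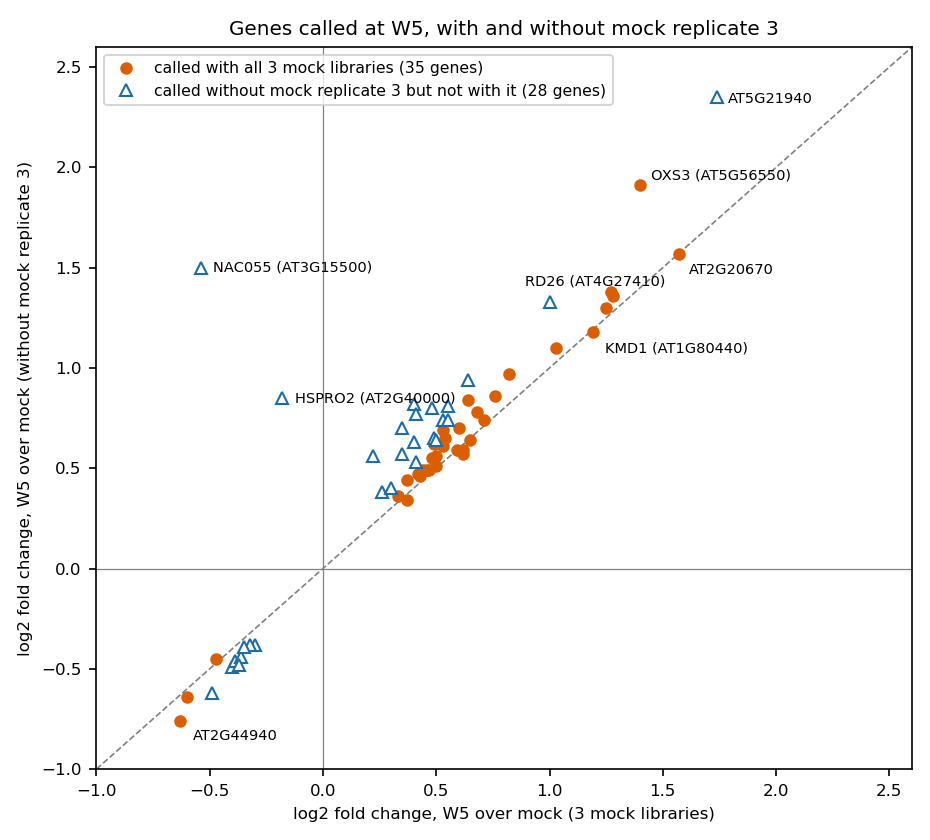
Log2 fold change of W5 over mock without mock replicate 3 (vertical axis) against that with all 3 mock libraries (horizontal axis) for the 35 genes called with all of them (orange circles) and the 28 called without mock replicate 3 but not with it (open blue triangles); the dashed line marks equality. The 35 genes lie near the line on the same side of 0, and NAC055 and HSPRO2 are the 2 triangles below 0 on the horizontal axis and above 0 on the vertical one.

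None of the 66 immune marker genes tested (pattern-triggered immunity, salicylic acid and systemic resistance, camalexin and indole glucosinolates) was called at W5, with or without mock replicate 3. Of all genes tested, only 0.18% and 0.307% were called in these fits, so the lack of a call does not set the immune genes apart. FRK1 (AT2G19190), a receptor kinase gene raised by bacterial patterns, had 4.16, 5.56 and 6.501 CPM in W5, against 3.35, 3.27 and 7.81 CPM in mock. The W5 values lay between those of mock replicates 1 and 2 and that of mock replicate 3, and the log2 fold change was 0.14 (adjusted p = 0.976), or 0.71 (adjusted p = 0.673) without mock replicate 3. WRKY33 (AT2G38470), a regulator of camalexin synthesis, had 38.3, 28.3 and 39.8 CPM in W5, against 29.4, 25.8 and 109.7 CPM in mock (log2 fold change -0.64, adjusted p = 0.89). PAD3 (AT3G26830), the last enzyme of camalexin synthesis, had 1.05, 1.42 and 3.07 CPM in W5, against 0.615, 0.46 and 5.57 CPM in mock (adjusted p = 0.978, and 0.805 without mock replicate 3). PAD3 was higher in each W5 library than in mock replicates 1 and 2, and the spread was too wide for a call.

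The named salicylic acid genes likewise stood highest in mock replicate 3, with PR5 as an exception. ICS1 (AT1G74710), which makes its precursor, had 28.2, 23.7 and 24.8 CPM in W5, against 24.4, 28.9 and 52.6 CPM in mock (adjusted p = 0.878). FMO1 (AT1G19250), which makes N-hydroxypipecolic acid, the mobile signal of systemic resistance, had 0.2, 0.138 and 0.211 CPM in W5, against 0.391, 0.306 and 17.6 CPM in mock (adjusted p = 0.812). PR1 (AT2G14610) had 0.902, 0.138 and 0.634 CPM in W5, against 0, 0 and 0.913 CPM in mock, so that it was at or close to 0 throughout. PR2 (AT3G57260) and PR5 (AT1G75040), other salicylic acid outputs, had adjusted p values of 0.921 and 0.855, and PR5 stood at 44.9, 23.6 and 30.9 CPM in W5, against 69.1, 53.8 and 41.1 CPM in mock. Mock replicate 3 was the highest of the 6 libraries in 49 of the 66 immune genes, against 21.2% of all genes tested. The median log2 fold change of the pattern-triggered immunity list was -0.24 with all mock libraries and 0.12 without mock replicate 3, and that of the salicylic acid list was -0.50 and 0.01.

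**Figure D4:**
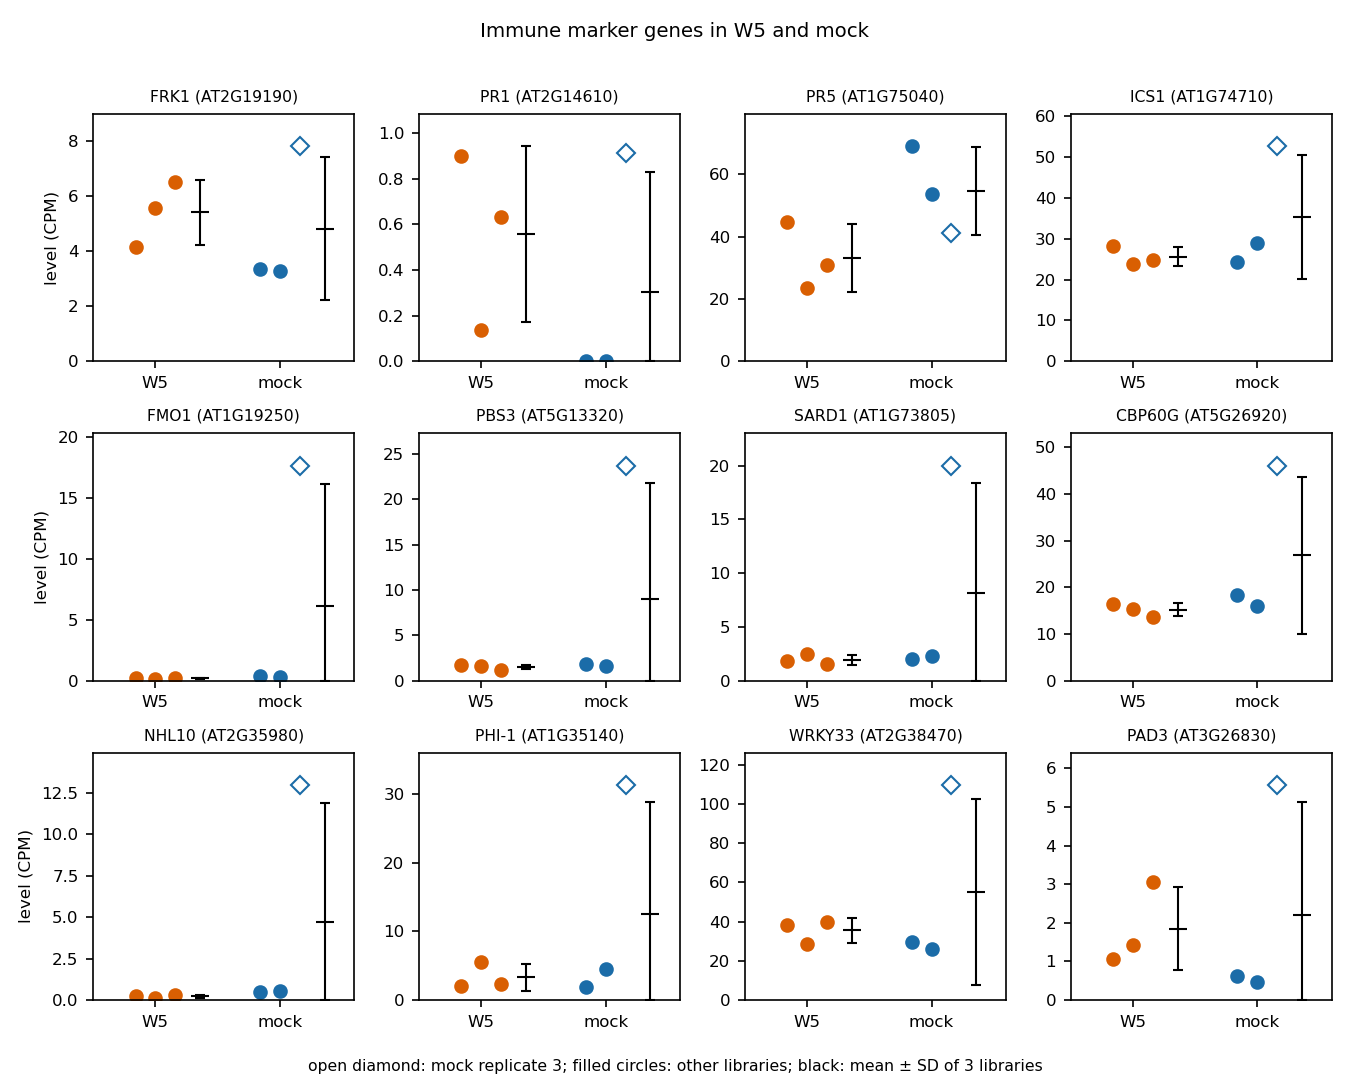
Levels in CPM on linear axes from 0 of 12 immune marker genes, W5 on the left in orange and mock on the right in blue, mean ± SD of 3 libraries in black (cut at 0). In every panel but that of PR5 the open diamond of mock replicate 3 is the highest of the 6 points.

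Jasmonate, clock and stress lists held no called gene in either fit, against 0.18% and 0.307% of all genes. The median of the 15 jasmonic acid and ethylene genes tested was 0.03 with all mock libraries, with 7 below 0. Without mock replicate 3 it was 0.48, with 0 of 15 below 0, against 0.003 over all genes. Against the mean of mock replicates 1 and 2, the list median was 0.325, 0.153 and 0.933 in the W5 libraries and 0.742 in mock replicate 3. VSP2 (AT5G24770), a jasmonate output, had 16.2, 14.4 and 24.5 CPM in W5, against 11.2, 7.41 and 15.2 CPM in mock (adjusted p = 0.918), and PDF1.2 (AT5G44420), raised by jasmonate with ethylene, had 2.65, 2.204 and 13.4 CPM in W5, against 3.91, 3.63 and 19.8 CPM in mock (adjusted p = 0.935). PDF1.2 varied several-fold within each group. CCA1 (AT2G46830), a morning clock gene, had 60.4, 58.5 and 67.8 CPM in W5, against 79.2, 72.3 and 63.8 CPM in mock (log2 fold change -0.21, adjusted p = 0.812). TCH2 (AT5G37770), a calmodulin-like gene raised by touch, had 26.4, 30.2 and 24.9 CPM in W5, against 30.5, 34.5 and 33.4 CPM in mock (log2 fold change -0.27, adjusted p = 0.424). The nitrate reductase gene NIA1 (AT1G77760) had 40.5, 39.9 and 34.9 CPM in W5, against 58.5, 53.5 and 43.9 CPM in mock (log2 fold change -0.43, adjusted p = 0.812). In TCH2 and NIA1 every W5 library lay below every mock library, as in 5.59% of all genes.

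The 18 leaf markers all had log2 fold changes below 0, against 10238 of all 19404 genes tested. Their median was -0.08, and none was called, against 0.18% of all genes. The gene for RBCS3B (AT5G38410), a small subunit of Rubisco, had 7208, 6141 and 6866 CPM in W5, against 8747, 8024 and 6277 CPM in mock (log2 fold change -0.19, adjusted p = 0.858, or -0.31 (adjusted p = 0.304) without mock replicate 3). LHCB1.1 (AT1G29920), of the light-harvesting complex, had 6141, 5456 and 5878 CPM in W5, against 6438, 6460 and 5453 CPM in mock (adjusted p = 0.931). Mock replicate 3 lay inside or below the range of W5 in both, and without it the list median was -0.15. In that edgeR fit 8 of the 18 were lower at an unadjusted p under 0.05 (44.4%, against 5.64% of all genes). With all mock libraries 0 of the 18 were. None was called in either fit. The 10 genes with the most counts took 9.11%, 8.38% and 8.86% of the counts in W5, against 9.47%, 9.51% and 8.46% in mock; the part of that share in the result was not tested.

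The genes higher at W5 were looked up in W7 against W6, a contrast that shares no library with W5 against mock. Both contrasts came from 1 model of all 15 libraries, so they share the estimate of spread of each gene. The lookup is for that reason not fully independent. In W7 against W6, 508 genes were called (2.62% of those tested), 308 higher in W7 (1.59%) and 200 lower (1.03%). Of the 32 genes higher at W5, 10 were higher again in W7 and 1 was lower, 27 had a positive log2 fold change, against 50.3% of all genes, and their median was 0.27, against 0.001 over all genes. The 10 were AT2G20670, KMD1, AT5G50450, AT2G24550, J8, AT2G27830, AT4G05070, ATCTH, BBX14 and OZF2. AT2G20670 had a log2 fold change of 0.45 (adjusted p = 0.011) in W7 over W6 and KMD1 of 0.31 (adjusted p = 0.048). OFP16 went the other way, at -0.32 (adjusted p = 0.0484), a call that was lost in 5 of the 6 fits that left out 1 W7 or W6 library, with the replicate block and with robust=FALSE.

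In a fit of the W7 and W6 libraries alone, 11 of the 32 were called higher and 1 lower, with 27 positive. Of all genes, 2.11% were called higher in that fit. With upper-quartile scaling the contrast of W7 with W6 gave 234 higher and 359 lower genes, with the median of all genes at -0.03, and 7 of the 32 were higher, with 26 positive. The 10 became 6, 3 and 6 without W7 replicates 1, 2 and 3, and 2 in the fit that left out W6 replicate 1, 10 without replicate 2 and 2 without replicate 3, while 26 or 27 of the 32 stayed positive in each of these fits. Of the 3 genes lower at W5, AT2G44940 was lower again in W7 than in W6 (-0.80, adjusted p = 0.00677), whereas ARR6 (0.47, adjusted p = 0.0495) and AT2G41410 (0.36, adjusted p = 0.0286) were higher in W7 than in W6.

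Across the densities the 32 genes did not reach their highest level at W5. Mean CPM was highest in W6 for 5 of them, in W7 for 19 and in W8 for 8. The mean was higher in W6 than in W5 for 31, higher in W7 than in W6 for 27 and higher in W8 than in W7 for 8. Mean KMD1 levels were 55.8 ± 0.596 CPM in mock, 127 ± 12.4 in W5, 234 ± 22.6 in W6, 291 ± 24.8 in W7 and 283 ± 13.7 in W8 (SD, n = 3 each). OXS3 means were 3.801 ± 1.92 CPM in mock, 10.2 ± 1.85 in W5, 19.6 ± 1.86 in W6, 18.4 ± 0.248 in W7 and 11.6 ± 0.903 in W8, so that this gene was at its highest in W6. AT2G44940 stood lower at each higher density, at 35.6 ± 5.78 CPM in mock, 22.9 ± 1.69 in W5, 16.1 ± 1.49 in W6, 9.24 ± 1.48 in W7 and 6.35 ± 0.633 in W8. ARR6 was lowest in W6, at 11.8 ± 2.36 CPM. All densities are set against the same mock libraries, so these levels are a description.

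**Figure D5:**
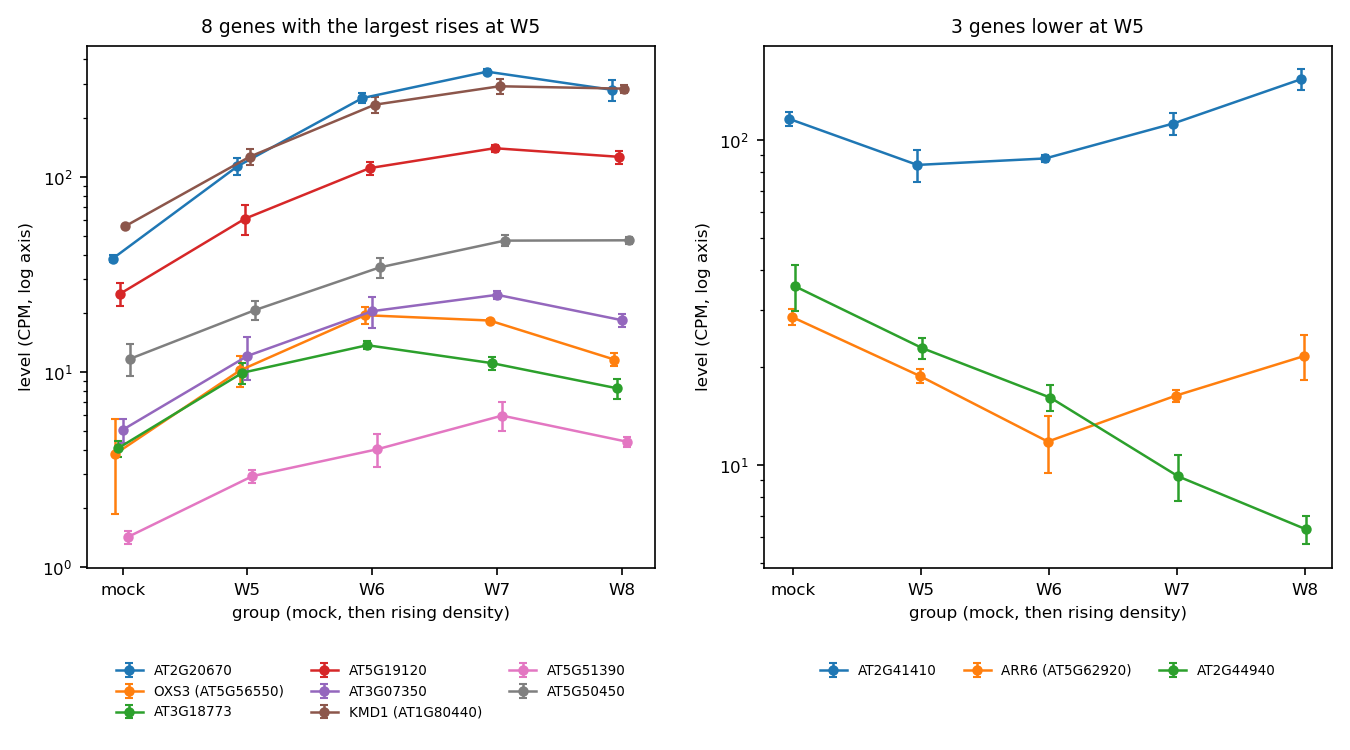
Mean level in CPM (log axis) with SD of 3 libraries for the 8 genes with the largest rises at W5 (left) and the 3 genes lower at W5 (right), over mock and the rising densities W5 to W8. On the left all lines climb from mock to W6 and most are highest in W7; on the right AT2G44940 falls at each density, ARR6 is lowest in W6 and AT2G41410 is lowest in W5 and highest in W8.

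The 250 bases before the annotated start of each gene were searched on both strands for 5 motifs, to see what the genes that moved together share beyond their levels. The letters TATCCA, an element known from sugar-repressed alpha-amylase genes of rice, were present in 14 of the 32 promoters of genes higher at W5 (43.8%) and in 2688 of the 18863 promoters of genes tested (14.3%). They were present in 3 of the 20 promoters of genes called higher only after mock replicate 3 was left out (15%), in 63 of 297 promoters of other genes higher in W7 than in W6 (21.2%), and in none of the 3 promoters of lower genes. The I-box GATAAG, which can overlap TATCCA on the other strand, was present in 9 of the 32 (28.1%, against 12.4% of all tested), and in 4 of the 32 (12.5%, against 1.24%) it overlapped a TATCCA match. The I-box was also present in 7 of those 20 promoters (35%) and in 68 of those 297 (22.9%). Among 198 promoters of genes lower in W7 than in W6 it was present in 14 (7.07%). The G-box CACGTG was present in 9.38%, against 7.39% of all, the core ACGT in 56.2%, against 44.1%, and the evening element AAAATATCT in 3.12%, against 2.56%. These matches are a description of the letters and carry no test.

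Of the sequences, 3 promoters with the element and 1 without it are shown, all from genes at least 2-fold higher at W5, to set the matches in place. They were read from RefSeq TAIR10.1, run 5′ to 3′ on the strand of the gene and end at the base before its annotated start, and capitals mark TATCCA or, where it lies on the other strand, TGGATA. The match lies 79 bases before the start in AT2G20670 and 94 bases before it in AT1G80440 (KMD1), AT5G19120 holds 2 matches farther from the start, and AT3G18773 holds none.
AT2G20670, chr2:8913748-8913997, minus strand: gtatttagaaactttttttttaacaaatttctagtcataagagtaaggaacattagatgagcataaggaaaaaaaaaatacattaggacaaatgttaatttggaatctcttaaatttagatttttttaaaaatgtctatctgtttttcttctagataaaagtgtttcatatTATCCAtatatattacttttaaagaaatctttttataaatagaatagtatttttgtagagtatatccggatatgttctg
AT1G80440, chr1:30241202-30241451, plus strand: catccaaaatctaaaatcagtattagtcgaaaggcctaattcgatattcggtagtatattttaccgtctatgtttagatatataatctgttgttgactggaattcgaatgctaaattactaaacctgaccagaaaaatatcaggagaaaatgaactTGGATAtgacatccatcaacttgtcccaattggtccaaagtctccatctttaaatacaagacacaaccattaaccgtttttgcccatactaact
AT5G19120, chr5:6414238-6414487, plus strand: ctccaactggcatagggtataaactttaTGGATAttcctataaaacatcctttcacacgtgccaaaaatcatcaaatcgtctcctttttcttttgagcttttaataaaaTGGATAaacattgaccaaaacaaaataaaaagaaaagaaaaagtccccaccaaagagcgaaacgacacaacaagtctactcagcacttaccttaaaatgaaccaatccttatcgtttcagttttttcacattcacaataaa
AT3G18773, chr3:6465498-6465747, plus strand: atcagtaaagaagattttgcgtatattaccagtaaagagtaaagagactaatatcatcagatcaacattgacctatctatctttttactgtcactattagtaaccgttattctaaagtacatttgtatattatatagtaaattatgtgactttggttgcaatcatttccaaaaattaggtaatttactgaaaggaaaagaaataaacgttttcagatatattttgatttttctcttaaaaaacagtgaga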

How the data were processed

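Poly-A RNA of aboveground plant parts was sequenced as paired ends. The authors deposited raw read counts for each gene, with 1 column per library for all 15 libraries. The submitters' processing notes name cutadapt 1.9.1, featureCounts 1.22.2 and the build TAIR10, but no source used here gives the aligner, the annotation release or the strand setting. Where less than 95% of a gene's exon bases belong to it alone in RefSeq TAIR10.1, its counts are called uncertain. Of 32833 identifiers, 32548 matched RefSeq, and coordinates are those of TAIR10.1, since the table holds none.

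Counts were analysed with edgeR 4.0.16 in R 4.3.3: filterByExpr by group (minimum count 10, minimum total 15), which kept 19404 genes and removed 13429, TMM scaling, estimateDisp, glmQLFit with robust=TRUE and glmQLFTest, with 1 mean per group over all 15 libraries and Benjamini-Hochberg adjustment over the genes tested. A gene was called at an adjusted p under 0.05. Standard errors were derived from the log2 fold change and its F statistic, and log2 CPM used a prior count of 2. At the depths given, precision is poor for genes near 1 CPM. The closest pair of libraries, W5 replicates 1 and 3, had 3.97 as chi-square over degrees of freedom, so none was a copy.

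The members and gene lists were chosen with earlier results of these data known. Named genes were every called gene, with library values for up to 15 higher and all lower ones by size of change; the 12 with the smallest p among those called without mock replicate 3 and not with it; up to 4 members of each list by p, and any called; a fixed set of hormone, immune and energy markers; and the 5 most extreme genes of mock replicate 3. Alternatives were DESeq2 1.42.0, limma 3.58.1 (voom), other scaling and filters, a replicate block, the 2 groups alone, and leaving out each library. The tests were checked on simulated counts with known changes. No simulated library was made to stand apart as mock replicate 3 does, so the check does not cover that feature.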

Additional observations from a re-analysis of the deposited data

How the results depend on the processing

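The count of genes called in W5 against mock was 35. It was 58 with DESeq2 (43 higher, 15 lower), 63 with limma voom and quality weights (42 higher, 21 lower) and 14 in a fit of the 2 groups alone (12 higher, 2 lower). Leaving out 1 library at a time gave 15 to 60 genes, the highest without mock replicate 3. In alternatives added after seeing the data, it was 242 with the 2 groups alone and mock replicate 3 left out (98 higher, 144 lower), 116 with DESeq2 and mock replicate 3 left out (75 higher, 41 lower) and 78 with mock replicate 3 and W8 replicate 2 left out (58 higher, 20 lower). Upper-quartile scaling (34), no filter (37), a minimum count of 50 (36), robust=FALSE (30) and limma voom (33) stayed within 1.5 times. Why the counts moved was not tested.

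W7 against W6 gave 508 genes, 1041 with DESeq2, 1810 with limma voom and quality weights, and 39 to 1153 when 1 library was left out. The other settings gave 402 to 642.

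Of the named genes, 2 turned direction when mock replicate 3 was left out: NAC055 (AT3G15500) had log2 fold changes of 1.5 without it and -0.54 with it, and HSPRO2 (AT2G40000) 0.85 and -0.18. The added fits without that library gave 1.5, 1.5 and 1.51 for NAC055 and 0.86, 0.85 and 0.86 for HSPRO2, and leaving out 1 library at a time gave -1.01 to 1.5 and -0.51 to 0.85. With all mock libraries kept, limma voom without and with quality weights gave 0.24 and 0.95 for NAC055 and 0.15 and 0.53 for HSPRO2, none called, so their negative sign also depended on the tool. No other named gene changed sign while called in either setting. Over the 15 settings, 2258 of the gene values kept their call or its absence, 128 lost a call and 37 gained one.

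Deviations from the group means of same-numbered W5 and mock libraries correlated weakly, at 0.08, -0.02 and 0.08. Those of differently numbered libraries correlated at -0.0891 to 0.0558. Mock replicate 3 weighs on all mock deviations, so these values cannot tell whether the replicate number pairs the libraries. With the replicate number as a block, 30 genes were called in W5 against mock (27 higher, 3 lower) and 450 in W7 against W6.

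With 3 libraries a group, a difference under 1.5-fold in a gene of low counts can be missed at this depth. Larger differences also went uncalled with all mock libraries, as for AT5G21940 and RD26, where mock replicate 3 was the highest mock library. A gene not called here is not shown to be unchanged.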

Other observations

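Ribosomal protein genes, a family taken up after the values were seen, lay slightly lower in W5. Of 296 genes whose RefSeq product names a ribosomal protein, 260 had a log2 fold change below 0, with a median of -0.10 over the family and -0.009 over all genes tested, and none was called by edgeR; 40 had an unadjusted p under 0.05 and were lower (13.5%, against 3.66% of all genes), and 1 was higher. DESeq2 called 1. Their summed level was 36110, 35730 and 36510 CPM in W5, against 39640, 41130 and 35940 CPM in mock, so W5 lay below mock replicates 1 and 2 and mock replicate 3 lay within the range of W5. Without mock replicate 3 the median was -0.15, 124 had an unadjusted p under 0.05 and were lower (41.9%, against 5.64% of all genes), and 3 were called lower. The fit of the 2 groups alone without that library called 33 lower, against 0.766% of all genes. The 3 were AT4G33865, at 44.3, 53.95 and 53.6 CPM in W5, against 69.7, 69.8 and 59.95 CPM in mock, AT4G31985 and AT2G25210. With DESeq2 size factors and with upper-quartile scaling the family medians were -0.10 and -0.10. In W7 against W6, which shares none of these libraries, 35 of the 296 were called lower and 1 higher, against 1.03% of all genes called lower and 1.59% called higher. Both contrasts share 1 estimate of spread for each gene.

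BBX13 and BBX17, B-box genes like BBX14, were called higher when mock replicate 3 was left out. The gene BBX13 (AT1G28050) had 16.8, 15.7 and 17.1 CPM in W5, against 10.6, 10.7 and 15.98 CPM in mock, and BBX17 (AT1G49130) had 15.2, 18.6 and 17.6 CPM in W5, against 9.72, 12.3 and 14.2 CPM in mock. Their adjusted p values in that fit were 0.0132 and 0.0177. PMT6 (AT4G36670), a polyol transporter gene, had 37.6, 34.2 and 39.8 CPM in W5, against 23.02, 27.2 and 44.7 CPM in mock, and rose in that fit by 0.56 on the log2 scale (adjusted p = 0.0183).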
